A study of Mus musculus with 52 samples.

Results

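The vehicle controls were the mice of this toxicogenomic study that received an injection without a test chemical, and they are described here for how their livers differed between 4 h and 20 h after it. The 10 arrays were chosen by title, as 5 control titles that occur at 4 h and again at 20 h, out of 52 arrays in all. Male B6C3F1 mice, a hybrid strain used in carcinogenicity bioassays, received a single intraperitoneal injection, and RNA from the livers of 5 mice was pooled for each array. Affymetrix mouse expression arrays measured the RNA, with several probe sets for some genes. The control titled Olive oil served AAT, DMBA and DBP. The controls titled ENU control, DMN control and DPN control served ENU, DMN and DPN, and the control titled Saline served EtOH and PB. All but the olive oil set received saline, so the vehicles were olive oil in 1 set and saline in 4 sets. The 5 titles are called control sets below, and values are given in the order olive oil, ENU, DMN, DPN and Saline. A pool averages its mice, so the spread between sets is the only error available, and whether the sets were separate experiments is not stated. The age of the mice is stated in the study's paper and not in the labels. The labels also give no clock hour of injection or dissection, light cycle or feeding state. Time after the injection, time of day and feeding therefore cannot be told apart in any value below.

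Liver has a strong daily rhythm. In the circadian clock, ARNTL and CLOCK drive Per, Cry and Nr1d genes, whose products hold ARNTL back, and the output factors Dbp and Tef pass the rhythm on to metabolism, so that Arntl and Dbp peak at opposite times of day. Injection and handling raise glucocorticoid and cytokine signalling in liver. Metallothioneins, which bind zinc and copper, and the acute phase proteins are classical responses to both. Cholesterol and fatty acid synthesis, under the SREBP factors, follow feeding and the clock.

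The 10 arrays had median signals between 61.0 and 106 before scaling, and the exact sign-flip permutation test over the 5 pairs gave p = 0.25 for the difference between times. With 5 pairs this two-sided test cannot go below 0.0625. The 3′ to 5′ log2 ratio of the Gapdh control probe sets, a sign of RNA integrity, lay between -0.31 and 0.34. The ratio of the actin probe sets was lower at 20 h in all 5 pairs, by 0.17 on average (exact sign-flip p = 0.0625), and its part in the results was not tested. The array labelled Saline at 20 h stood apart in Cyp2b10, the phenobarbital-induced cytochrome P450. Over the 5 sets the log2 signal of Cyp2b10 was 8.07, 6.49, 6.81, 7.26 and 8.28 at 4 h and 6.19, 7.26, 6.99, 6.80 and 11.48 at 20 h. The array labelled PB gave 11.98 at 4 h and 8.25 at 20 h. The labels of the Saline and PB arrays of 20 h are therefore both in doubt. The vehicle calls and the clock genes are repeated without the Saline pair, and the count of treated calls without the PB pair. All 9 measured hepatocyte markers passed the filter on low values. Of the 6 cholangiocyte markers with a probe set, 0 passed it.

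The upstream sequences of 5 genes described below are shown first, each of which holds a match to a short motif. Of these genes only Socs3 was called between 4 h and 20 h in the vehicle comparison, and the other called gene, Dhcr7, is not shown. Each is the 250 bases before the gene start in RefSeq (mouse build GRCm38.p6), and a script marked in capitals each match on either strand. For Mt1 (chr8:94178839-94179088, plus strand) and Mt2 (chr8:94172368-94172617, plus strand) the letters are the metal response cores TGCACNC and TGCGCNC, of which Mt1 held 1 and Mt2 held 3 here. These cores occurred in 21.4% of 32851 such windows.
Mt1: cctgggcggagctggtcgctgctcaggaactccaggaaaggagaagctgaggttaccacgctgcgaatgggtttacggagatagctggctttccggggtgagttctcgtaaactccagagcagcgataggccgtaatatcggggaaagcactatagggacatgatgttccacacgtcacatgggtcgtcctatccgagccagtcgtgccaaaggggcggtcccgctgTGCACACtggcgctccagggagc
Mt2: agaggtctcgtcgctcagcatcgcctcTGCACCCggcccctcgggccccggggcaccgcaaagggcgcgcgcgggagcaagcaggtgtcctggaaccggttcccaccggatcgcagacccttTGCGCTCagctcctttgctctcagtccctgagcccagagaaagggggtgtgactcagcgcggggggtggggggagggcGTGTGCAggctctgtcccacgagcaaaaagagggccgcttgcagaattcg
For Cxcl1 (chr5:90890995-90891244, plus strand) the capitals mark 2 matches to the NF-κB motif GGG, any 2 bases, TTTCC, found in 1.41% of windows. For Socs3 (chr11:117969367-117969616, minus strand) they mark 1 match to TTCNNNGAA, the paired half-sites read by STAT factors, found in 7.02%. For Hmgcs1 (chr13:119690101-119690350, plus strand) they mark 1 match to the sterol response core TCACNCCAC, found in 1.05%.
Cxcl1: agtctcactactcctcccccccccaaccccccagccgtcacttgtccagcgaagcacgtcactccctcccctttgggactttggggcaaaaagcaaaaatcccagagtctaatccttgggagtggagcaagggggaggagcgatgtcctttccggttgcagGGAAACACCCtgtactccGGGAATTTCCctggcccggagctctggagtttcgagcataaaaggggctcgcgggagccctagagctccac
Socs3: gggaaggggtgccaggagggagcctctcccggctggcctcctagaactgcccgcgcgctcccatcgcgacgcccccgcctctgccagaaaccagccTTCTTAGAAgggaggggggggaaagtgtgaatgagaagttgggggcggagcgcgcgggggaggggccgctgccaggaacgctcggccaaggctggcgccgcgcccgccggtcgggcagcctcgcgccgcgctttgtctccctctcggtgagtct
Hmgcs1: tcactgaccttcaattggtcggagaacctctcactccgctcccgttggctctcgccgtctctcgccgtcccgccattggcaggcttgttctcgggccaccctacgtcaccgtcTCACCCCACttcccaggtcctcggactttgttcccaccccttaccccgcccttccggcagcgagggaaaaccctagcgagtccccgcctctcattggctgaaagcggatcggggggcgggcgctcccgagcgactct
Such a match describes the sequence and does not show that a factor was bound. Of the 16 cholesterol synthesis genes with a promoter in the table, Hmgcs1 alone held the sterol core. Of 23 clock genes, 6 held the E-box CACGTG, which occurred in 6.02% of windows. They were Bhlhe41, Ciart, Cry1, Lonrf3, Per1 and Tef.

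Across all features, the livers of vehicle mice differed little that could be called. Of 15988 probe sets tested with limma, with the control set as a block, 2 passed an adjusted p under 0.05, which is 0.0125%, with 1 in each direction (0.00625%). At an unadjusted p under 0.05 there were 1537, of which 867 were higher and 670 lower at 20 h. Socs3, the inhibitor of cytokine signalling through STAT3, fell, and Dhcr7, the last enzyme of cholesterol synthesis, rose.

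The called Socs3 probe set had log2 signals of 7.78, 7.12, 7.35, 8.26 and 6.80 at 4 h. At 20 h it had 6.21, 5.02, 5.48, 5.91 and 5.23, so that every 20 h array lay under every 4 h array. Some of these 20 h values were close to the floor of 5.02, below which signals were not read. The log2 difference was -1.89 ± 0.16 (SE, n = 5 pairs, limma adjusted p = 0.0105). With a higher floor, at the 40th percentile, it was -1.61 (adjusted p = 0.0367). The brightest of the Socs3 probe sets was also lower in 5 of 5 sets, with a log2 difference of -1.62 ± 0.42, and did not pass (adjusted p = 0.257). Dhcr7 had log2 signals of 8.04, 8.66, 8.92, 7.87 and 8.46 at 4 h and 9.22, 9.50, 9.62, 8.95 and 9.47 at 20 h, again without overlap. Its log2 difference was 0.96 ± 0.10 (adjusted p = 0.0262). Without the Saline pair Socs3 remained the 1 called probe set (0.00625%, lower, log2 difference -1.97, adjusted p = 0.0434) and Dhcr7 did not pass (0.95, adjusted p = 0.209). Leaving out any 1 of the 5 sets ended the Dhcr7 call (adjusted p from 0.0558 to 0.209), and leaving out the ENU set or the DMN set also ended that of Socs3 (adjusted p = 0.0618 and 0.0695).

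A fit of all 20 vehicle arrays, which adds the controls of 14 and 28 days, called 12 probe sets between 4 h and 20 h (0.0751%). The 7 that fell (0.0438%) included those of Socs3, Il1r1, Fkbp5, Map3k5, 2010003K11Rik and Cplx1, and 1 probe set with no single gene name. The brightest Cplx1 probe set is another one and was not lower at 20 h. Its log2 difference was 0.039 in the vehicle arrays of 4 h and 20 h alone (limma adjusted p = 0.932). The 5 that rose (0.0313%) were those of Nr0b2, Ddc, Mmab, Pter and Dhcr7. Between 4 h and 28 days 77 probe sets passed (0.482%), 35 higher (0.219%) and 42 lower (0.263%), and between 20 h and 28 days 0 passed, with 698 at an unadjusted p under 0.05. For single genes the 14-day arrays are given as values only, although they enter the fit of 20 arrays and its error. Their medians ran from 40.5 to 205, and 2003 of their 2272 calls against 4 h (14.2%) were lower (12.5%) and 269 higher (1.68%). Against 20 h there were 3121 (19.5%), of which 489 were higher (3.06%) and 2632 lower (16.5%). With those arrays left out, the calls between 4 h and 20 h numbered 5. The fit repeated without the Saline set called 3 between 4 h and 20 h and 12 between 4 h and 28 days. Of the 112 probe sets whose 20 h arrays all lay above their 4 h arrays, 9 were called higher in the treated arrays (8.04%), where 0.938% of all probe sets were, and of the 78 that lay all below, 12 were called lower (15.4%, against 1.02% of all).

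Among the genes called in the fit of 20 arrays, Il1r1, the receptor for interleukin-1, had log2 signals of 8.80, 7.13, 6.21, 8.98 and 7.58 at 4 h. At 20 h it had 5.19, 5.44, 5.02, 5.27 and 5.02, at or near the floor of 5.02 below which signals were not read, so the difference is bounded by the floor. The log2 difference in the 10 arrays was -2.55 ± 0.36 and just missed the threshold (limma adjusted p = 0.0854). Without the Saline pair the adjusted p was 0.292. It passed in the fit of 20 vehicle arrays (adjusted p = 0.00155), where the difference of 28 days from 4 h was -2.46 ± 0.32 (adjusted p = 0.00167).

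Cxcl1, the chemokine that calls in neutrophils, had log2 signals of 10.64, 8.34, 8.93, 11.24 and 6.98 at 4 h and 8.91, 6.94, 7.06, 7.25 and 5.46 at 20 h. It was lower at 20 h in 5 of 5 sets although the groups overlapped, and the DPN and olive oil sets were highest at 4 h. The log2 difference was -2.10 ± 0.33 (adjusted p = 0.0854), and without the DPN set it passed (-4 in that set, -1.63 without it, adjusted p = 0.0183). Without any other 1 set it did not pass (limma adjusted p from 0.126 to 0.292), and without the Saline pair it was -2.25 (adjusted p = 0.292). By 28 days the difference from 4 h was -2.75 ± 0.50 (adjusted p = 0.0187). Of 9 tested chemokines, 3 were lower at an unadjusted p under 0.05 and 0 higher, where 4.18% and 5.59% of 9635 genes were. The others were Cxcl9 (-0.83 ± 0.21) and Cxcl10 (-0.67 ± 0.16), each at the floor in 2 of the 20 h arrays.

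The metallothioneins, described together, were lower at 20 h. Mt1 had log2 signals of 12.87, 12.19, 12.66, 13.19 and 12.29 at 4 h and 12.65, 9.98, 10.43, 11 and 9.22 at 20 h. Mt2 had 12.54, 11.12, 11.67, 12.67 and 11.40 at 4 h and 11.89, 9.46, 9.54, 8.99 and 8.43 at 20 h. The olive oil set differed least in both genes, by -0.22 and -0.65, and each of the 4 saline sets was lower by more than that. The log2 differences were -1.98 ± 0.32 for Mt1 and -2.22 ± 0.35 for Mt2 (adjusted p = 0.0854 for each), and without the olive oil set Mt1 passed, at -2.43 (adjusted p = 0.00202). Without any other 1 set Mt1 did not pass (limma adjusted p from 0.184 to 0.292). Without the Saline pair the differences were -1.71 for Mt1 (adjusted p = 0.292) and -2.03 for Mt2 (adjusted p = 0.306). With 1 olive oil set, vehicle and set cannot be told apart. At 28 days the olive oil and Saline sets were the lowest in Mt1, with log2 signals of 7.37, 10.19, 9.04, 10.42 and 7.58 over the 5 sets. Against 4 h the 28-day difference was -3.72 ± 0.56 for Mt1 (adjusted p = 0.00538) and -3.35 ± 0.44 for Mt2 (adjusted p = 0.00167). Slc39a14, a zinc importer of hepatocytes, was lower at 20 h in 5 of 5 sets (-0.86 ± 0.14, adjusted p = 0.0927). Of the 5 tested genes of metallothionein and zinc handling, 3 were lower at an unadjusted p under 0.05 (4.18% of all genes were), with a list median of -0.86 where the median over all genes was 0.015.

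Fkbp5, a co-chaperone of the glucocorticoid receptor and one of its most sensitive targets, had log2 signals of 10.29, 8.91, 8.70, 9.48 and 9.92 at 4 h. At 20 h it had 8.22, 8.43, 8.15, 8.41 and 8.22, with no overlap and with sets that differed less among themselves than at 4 h. The log2 difference was -1.18 ± 0.22 (limma adjusted p = 0.13), and without the Saline pair it was -1.05 (adjusted p = 0.42). Fkbp5 passed in the fit of 20 vehicle arrays (adjusted p = 0.0233). At 28 days it stood at 7.92, 7.81, 7.74, 8.07 and 7.64, with a difference from 4 h of -1.62 ± 0.19 (adjusted p = 0.000775). Of 10 glucocorticoid targets tested, 2 were lower and 2 higher at an unadjusted p under 0.05, where 4.18% and 5.59% of all genes were. Cebpb, a liver transcription factor, was lower in 5 of 5 sets like Fkbp5, with a log2 difference of -0.51 ± 0.13 (adjusted p = 0.231). Tsc22d3, which encodes the glucocorticoid-induced leucine zipper, had a log2 difference of 0.50 ± 0.14 with higher values in 4 of 5 sets.

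Some immediate early genes, which answer growth factors and stress rapidly, were lower as well. Of 20 tested, 7 were lower and 0 higher at an unadjusted p under 0.05 (4.18% and 5.59% of all genes were), 6 were lower in 5 of 5 sets (4.19% of all genes were), and the list median was -0.14. The stress sensor Gadd45g had log2 signals of 8.81, 6.90, 6.56, 8.40 and 8.16 at 4 h and 7.67, 5.58, 6.51, 6.26 and 5.71 at 20 h (log2 difference -1.42 ± 0.30, adjusted p = 0.162). Junb, an AP-1 subunit, and Btg2, an antiproliferative p53 target, had log2 differences of -0.93 ± 0.18 and -0.66 ± 0.13, and 0 of the 20 were called.

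**Figure D1:**
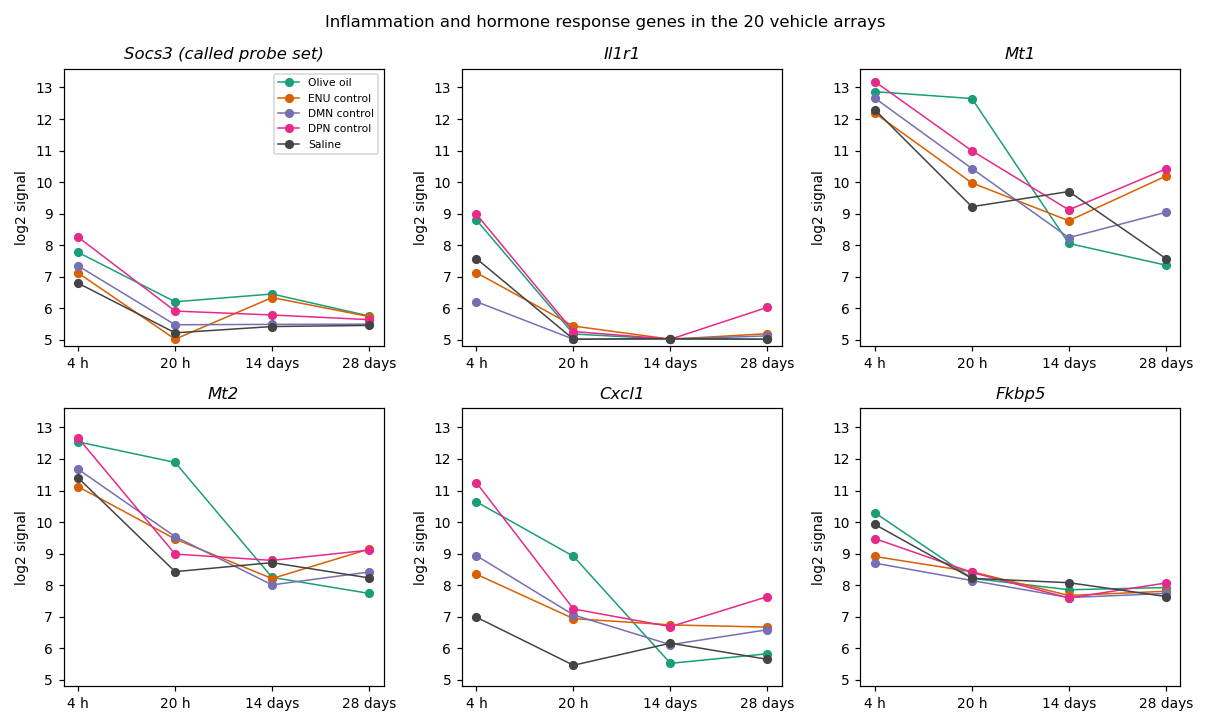
Log2 signal of 6 response genes in the 20 vehicle arrays at 4 h, 20 h, 14 days and 28 days, with 1 line per control set and 1 pooled array per point. In all 6 genes each of the 5 lines is lower at 20 h than at 4 h, and the olive oil line stays high at 20 h in Mt1 (12.65) and Mt2 (11.89).

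Acute phase proteins, which hepatocytes secrete in inflammation, did not all share a direction. The list used for them also holds Il1r1, Socs3 and Stat3, which act in cytokine signalling and are not secreted acute phase proteins. Of 23 tested genes of that list, 16 had a positive log2 difference and 7 a negative one. At an unadjusted p under 0.05, 2 were higher and 4 lower, where 5.59% and 4.18% of all genes were. The lower ones were Il1r1, Socs3, Stat3 and Saa4. Saa2, a serum amyloid A, differed more between sets than between the 2 times. Its log2 signals were 12.25, 8.91, 12.46, 12.72 and 11.12 at 4 h and 12.68, 8.74, 12.68, 12.66 and 9.85 at 20 h, so that the ENU set was lowest at each time. Lcn2, an iron-binding acute phase protein, gave 9.42, 5.82, 9.34, 11.91 and 7.23 at 4 h and 12.05, 5.90, 8.49, 10.90 and 7.06 at 20 h, with the ENU set again lowest. By 28 days Saa2 stood at 7.21, 7.39, 11.87, 7.88 and 7.36, and only the DMN set was still close to its 4 h level. The 28-day difference of Saa2 from 4 h was -3.15 ± 0.57 (adjusted p = 0.0187), and that of Lcn2, -3.04 ± 0.83, did not pass (adjusted p = 0.144).

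Enzymes of cholesterol synthesis were higher at 20 h. All 18 tested members of 24 had a positive log2 difference, 14 were higher in 5 of 5 sets (6.29% of all genes were), and 13 passed an unadjusted p under 0.05, where 5.59% of all genes did. The list median was 0.51, and set by set it was 0.92, 0.33, 0.28, 0.48 and 0.57. Besides Dhcr7, called above, Pmvk and Mvd, kinase and decarboxylase of the mevalonate pathway, did not overlap between times, so 3 of 18 did not, where 0.758% of all genes lay higher without overlap and 0.488% lower. Pmvk had log2 signals of 6.94, 6.95, 6.70, 6.45 and 6.84 at 4 h and 7.96, 8.05, 8.02, 7.02 and 8.17 at 20 h (log2 difference 1.06 ± 0.14, adjusted p = 0.0732). Fdps, which makes farnesyl diphosphate, gave 9.85, 9.95, 10.51, 9.86 and 10.59 at 4 h and 11.17, 11.24, 11.12, 10.56 and 11.34 at 20 h (0.94 ± 0.12, adjusted p = 0.0732). Hmgcs1, which makes HMG-CoA at the head of the pathway, had the largest mean difference of the 18 (1.09 ± 0.27, adjusted p = 0.225) with set differences of 2.19, 0.24, 0.45, 0.75 and 1.83. The olive oil and Saline sets differed most. Mmab, a cobalamin enzyme that lies head to head with the mevalonate kinase gene, rose in the fit of 20 arrays (0.77 ± 0.14, adjusted p = 0.0367), a call that held in 6 of 14 alternatives. In the vehicle comparison without the Saline pair, its difference was 0.70 (limma adjusted p = 0.484).

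The higher level did not last as a call. At 28 days Dhcr7 stood at 8.89, 8.25, 9.59, 8.62 and 8.71, 0.42 ± 0.16 from 4 h (adjusted p = 0.383). The median of the list was 0.20 for 28 days minus 4 h and -0.32 for 28 days minus 20 h. Between 4 h and 28 days 0 members were called, where 0.259% of all genes were called higher and 0.228% lower. The DMN set was the highest at 28 days in Fdps, with 10.55, 9.60, 11.47, 10.03 and 10.06 over the 5 sets.

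**Figure D2:**
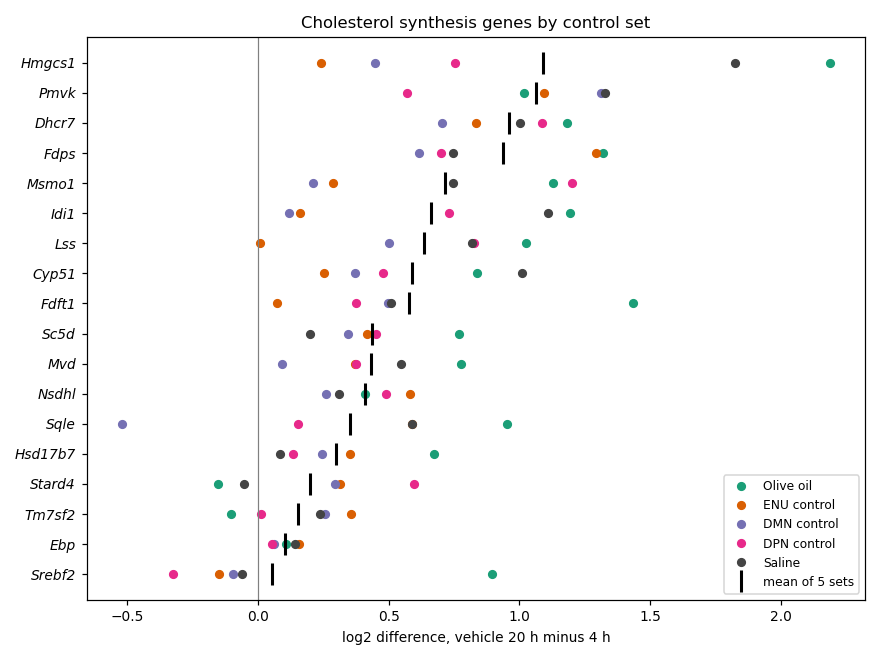
Log2 difference of vehicle 20 h minus 4 h for the 18 tested cholesterol synthesis genes, with 1 point per control set and a black bar at the mean of 5 sets. For Hmgcs1, Pmvk, Dhcr7 and Fdps all 5 points lie above 0, and the olive oil points are the farthest to the right in Hmgcs1, Dhcr7 and Fdps.

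Of 17 tested members of fatty acid synthesis, 0 were called. At an unadjusted p under 0.05, 6 were higher and 0 lower, where 5.59% and 4.18% of all genes were, with a list median of 0.20. Acss2, which makes acetyl-CoA from acetate, had log2 signals of 9.45, 10, 9.60, 9.16 and 9.84 at 4 h and 9.83, 10.64, 10.59, 9.95 and 10.28 at 20 h (0.65 ± 0.10, adjusted p = 0.0854). Srebf1, the master factor of lipogenesis, had set differences of 0.54, 1.12, 0.83, 0.75 and -0.07, and Fasn, fatty acid synthase, 0.0021, 1.19, 1.11, 0.76 and -0.32. In both genes the ENU, DMN and DPN sets were higher at 20 h by more than the olive oil and Saline sets. The set medians of the list were 0.0021, 0.44, 0.52, 0.37 and -0.066.

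Of genes on the oxidative side, 0 of 19 tested PPARα and fatty acid oxidation genes were higher and 5 lower at an unadjusted p under 0.05, against 5.59% and 4.18% of all genes. The fatty acid sensor Ppara itself was lower in 5 of 5 sets (-0.67 ± 0.11, adjusted p = 0.0966), with 10.19, 11.09, 9.82, 10.36 and 10.20 at 4 h and 9.46, 10.23, 9.28, 10.14 and 9.21 at 20 h. Its target Acot1, an acyl-CoA thioesterase that fasting raises, stood at 7.45, 5.56, 5.63, 6.08 and 7.73 at 4 h and was on the floor at 20 h in all sets but Saline (6.15). Acot1 thus passed the filter on low values through its 4 h arrays, and it is counted among the 5 lower genes. It belongs to a cluster of closely similar genes whose signals may not be separable.

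Nr0b2, the small heterodimer partner that represses bile acid synthesis, was higher at 20 h. It had log2 signals of 7.68, 7.60, 8.24, 8.10 and 7.43 at 4 h and 8.80, 8.45, 9.70, 8.81 and 9.68 at 20 h, without overlap. The log2 difference of 1.28 ± 0.20 missed the threshold in the 10 arrays (limma adjusted p = 0.0854). Without the Saline pair, whose difference was the largest, it was 1.04 (adjusted p = 0.209). Nr0b2 rose in the fit of 20 (adjusted p = 0.00973), in which 28 days also lay above 4 h by 1.17 ± 0.19 (adjusted p = 0.00883). Cyp7a1, the rate-limiting enzyme of bile acid synthesis, had no common direction, with set differences of -0.92, 0.86, -1.04, 0.79 and -1.75. It was higher at 20 h in the ENU and DPN sets and lower in the others. Of 15 tested bile acid genes, 3 were higher and 1 lower at an unadjusted p under 0.05, where 5.59% and 4.18% of all genes were.

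G6pc, the last step of glucose release, had log2 signals of 10.25, 10.60, 10.71, 10.43 and 10.83 at 4 h and 11.29, 11.76, 11.22, 11.13 and 11.21 at 20 h and did not overlap (0.76 ± 0.12, adjusted p = 0.0854). Pck1, the other key enzyme of gluconeogenesis, differed by -0.16 ± 0.08. Ddc, which decarboxylates aromatic amino acids, had 8.52, 9.18, 9.69, 9.12 and 8.64 at 4 h and 10.13, 9.81, 10.59, 9.66 and 10.26 at 20 h, higher in 5 of 5 sets. It rose in the fit of 20 arrays (1.06 ± 0.19, adjusted p = 0.0361), a call that held in 4 of 14 alternatives. At 28 days it was still higher (1.27 ± 0.19, adjusted p = 0.00443). In the vehicle comparison without the Saline pair, the 20 h difference of Ddc was 0.92 (limma adjusted p = 0.292). Gys2, liver glycogen synthase, had set differences of -1.70, -0.16, -0.19, 0.11 and -1.40, so that the olive oil and Saline sets were lower by far more than the other 3.

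Several clock genes differed between 4 h and 20 h in some control sets and not in others. At 4 h all 5 sets had much Dbp, with log2 signals of 9.04, 9.79, 8.49, 9.27 and 9.12. At 20 h the signals were 5.95, 9.59, 7.26, 9.43 and 5.89, which gives set differences of -3.09, -0.20, -1.23, 0.16 and -3.23. The olive oil and Saline arrays were far lower, the DMN array was lower by less, and the ENU and DPN arrays were close to their 4 h levels. Arntl was the mirror image, at 5.47, 5.69, 6.52, 5.85 and 5.78 at 4 h and 8.18, 5.84, 7.61, 5.02 and 8.08 at 20 h. Its set differences were 2.71, 0.15, 1.09, -0.83 and 2.30, higher by more than 1 in the olive oil, DMN and Saline sets and not in the ENU and DPN sets.

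Other clock genes took the same shape. The set differences of the deubiquitinase Usp2 were -2.48, -0.09, -0.28, -0.46 and -3.19, and those of Wee1, a mitotic kinase under clock control, were -3.13, -0.30, -0.83, 0.44 and -2.67. Those of Tef were -1.67, 0.06, -0.60, -0.13 and -1.11. The repressor Nr1d2 gave -1.41, -0.07, -0.44, 0.10 and -1.08 and Bhlhe40 gave -1.61, 0.28, -0.10, -0.17 and -1.67, and Nampt, which makes NAD in a clock-driven cycle, gave -1.29, -0.10, 0.07, -0.33 and -1.49. In each of these 6 genes the olive oil and Saline sets had the 2 most negative differences. Over the 9 tested clock outputs the set medians were -1.73, -0.087, -0.28, 0.033 and -1.49, and over the 9 tested clock repressors they were -1.09, -0.069, -0.098, 0.097 and -0.88.

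In the mean over sets 0 clock genes were called. The mean log2 difference was -1.52 ± 0.48 for Dbp (adjusted p = 0.361), -1.30 ± 0.43 for Usp2 (adjusted p = 0.396) and 1.08 ± 0.45 for Arntl (adjusted p = 0.49). Without the Saline pair these were -1.09 for Dbp, -0.83 for Usp2 and 0.78 for Arntl, and the median of the clock repressors went from -0.40 to -0.20. Ranked by the spread of their 5 set differences among the 9635 genes, Dbp lay at percentile 99.9, Wee1 at 99.9, Usp2 at 99.8 and Arntl at 99.8. Clock, which partners ARNTL, was steadier in the vehicles, at 6.28, 5.71, 5.93, 6.09 and 5.86 at 4 h and 6.39, 6.04, 6.65, 6.11 and 6.40 at 20 h. Per1, which glucocorticoids also induce, was at the floor in the DMN array of 4 h and had 7.66, 7.48, 5.02, 7.15 and 7.78 at 4 h and 5.02, 7.75, 7.08, 7.53 and 5.71 at 20 h. Per2 gave set differences of -1.47, 0.35, 0.87, 0.43 and -1.15, Per3 -1.09, -0.13, -0.50, 0.32 and -0.71 and Nr1d1 0.01, -0.18, 0.12, 0.07 and 1.22.

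Arrays that the vehicle comparison did not use gave a like order of sets for Dbp and Arntl. In the treated mice at 20 h, Dbp was 6.47, 6.95 and 7.01 for AAT, DMBA and DBP, which share the olive oil control, and 6.26 and 6.78 for EtOH and PB, which share Saline. It was 9.88 for ENU, 9.15 for DPN and 8.49 for DMN, the last being above its vehicle. At 4 h the 8 treated arrays lay in the range 8.04 to 9.12. Of the 20 h arrays, that of EtOH had a Gapdh 3′ to 5′ log2 ratio of 3.13, and the label of the PB array is in doubt. Arntl at 20 h was 7.74, 7.43, 7.16, 5.47, 7.11, 6.05, 8.15 and 7.99 for AAT, DMBA, DBP, ENU, DMN, DPN, EtOH and PB. The vehicle arrays of 28 days had Dbp at 6.12, 9.65, 7.01, 9.65 and 5.74 and Arntl at 8.69, 5.22, 7.46, 5.77 and 8.32, which is again low Dbp and high Arntl in the olive oil and Saline sets. At 14 days Dbp was 5.92, 9.09, 7.56, 9.22 and 9.76, so the Saline set stood with the ENU and DPN sets there. These values are a description, with no test, and the olive oil set shows the pattern also with the Saline set left aside.

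**Figure D3:**
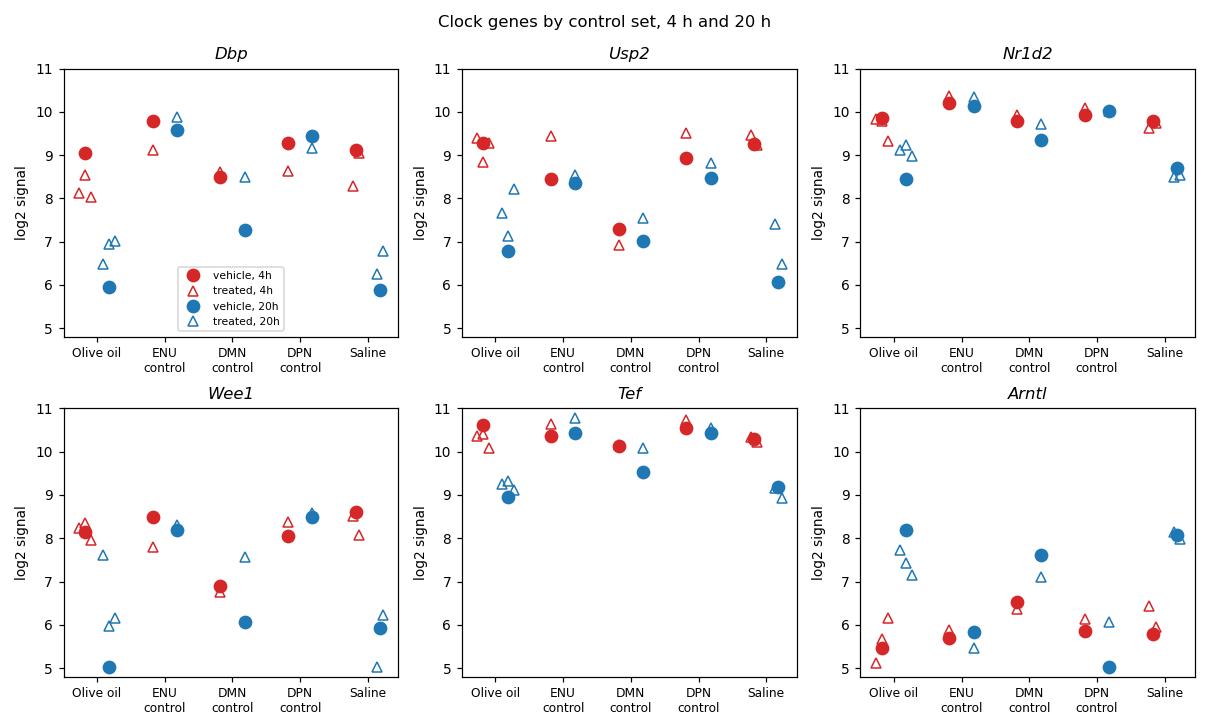
Log2 signal of 6 clock genes by control set, with vehicle arrays as filled circles and the treated arrays of the same set as open triangles, at 4 h (red) and 20 h (blue). Dbp at 20 h is low in the olive oil (5.95) and Saline (5.89) sets and stays high in the ENU (9.59) and DPN (9.43) sets, and Arntl runs the other way. The 20 h triangles of the Saline set are the EtOH array, with a Gapdh 3′ to 5′ log2 ratio of 3.13, and the PB array, whose label is in doubt.

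Among the remaining lists, that of endoplasmic reticulum stress and the amino acid response had a median of 0.14. Of its 23 tested genes, 6 were higher and 1 lower at an unadjusted p under 0.05, against 5.59% and 4.18% of all genes. Sdf2l1, an endoplasmic reticulum chaperone partner, differed by 0.56 ± 0.17 and the disulfide isomerase Pdia6 by 0.33 ± 0.12, while Xbp1, the factor of the unfolded protein response, differed by -0.32 ± 0.08. Of 10 tested growth hormone and IGF genes, 0 were higher and 2 lower at that threshold, beside the same shares. In that list 3 had a positive difference and 7 a negative one, with a median of -0.057. Socs2 and Cish, which growth hormone induces, had log2 differences of -0.81 ± 0.21 and -0.58 ± 0.17. Of 13 interferon-stimulated genes, 0 passed an unadjusted p under 0.05 in either direction, and of 14 tested p53 targets 1 was lower, Cdkn1a (-0.75 ± 0.30). Btg2 is counted with the immediate early genes and not in the p53 list. Of 12 heat shock genes 1 was higher and 2 lower at the same threshold, beside the same shares of all genes.

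Of cell type markers, 5 of 12 endothelial genes were lower at an unadjusted p under 0.05 and 0 higher, against 4.18% and 5.59% of all genes. They were Oit3, Eng, Fcgr2b, Clec4g and Stab2. The median of the 12 was -0.15, and the summed signal of the list ranged from 1965 to 2343 at 4 h and from 1615 to 2132 at 20 h. In bulk tissue, fewer cells of a type and less RNA per cell cannot be told apart. The Kupffer cell list had 1 of 10 lower and 0 higher, with a summed signal of 2938 to 4678 at 4 h and 3160 to 4104 at 20 h. The neutrophil list had 0 of 6 in either direction, with a summed signal of 594 to 695 at 4 h and 569 to 681 at 20 h, and its defining markers S100a8 and Cxcr2 did not pass the filter on low values. The part of these cells in the differences above was not tested.

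**Figure D4:**
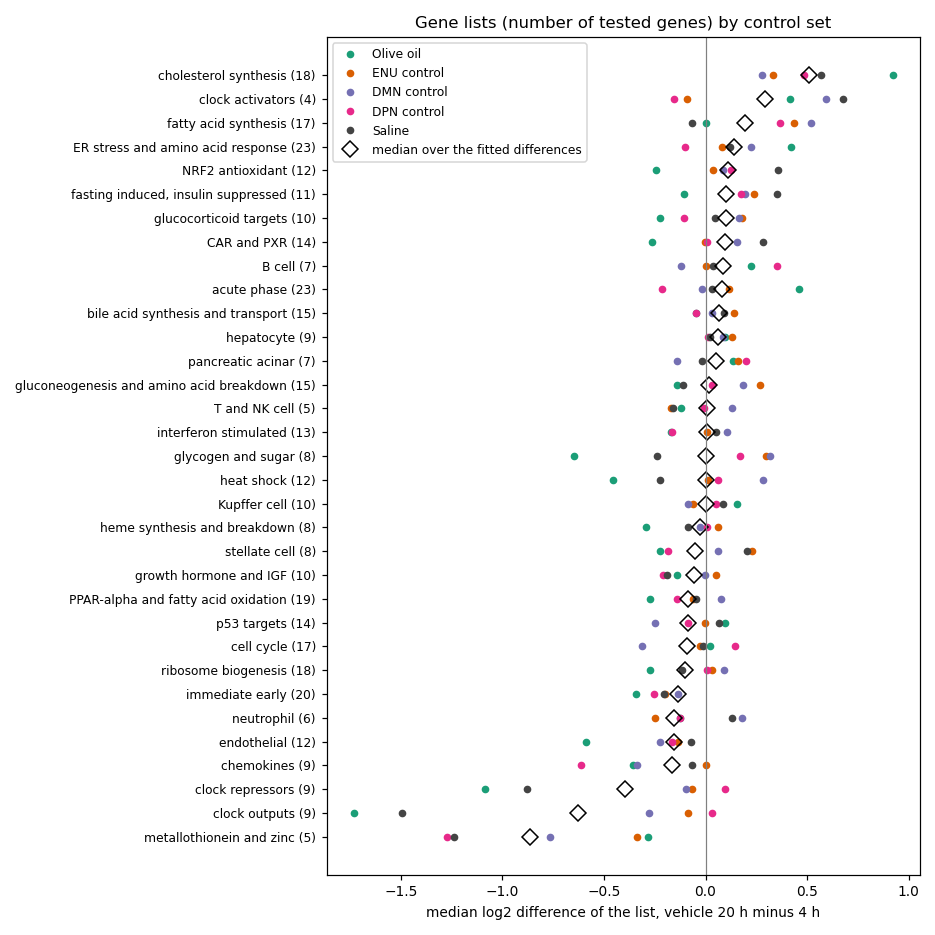
Median log2 difference of vehicle 20 h minus 4 h for each list with at least 4 tested genes, with 1 point per control set and an open diamond for the median of the fitted differences. Cholesterol synthesis lies highest (0.51) with its 5 points above 0, metallothionein and zinc lies lowest (-0.86) with its 5 points below 0, and the clock outputs run from -1.73 in the olive oil set to 0.033 in the DPN set.

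The qPCR marker panel of the study was also looked up in the vehicles. It holds 34 genes that go back to candidates the study first picked on microarrays of these same chemicals, so it is not independent of these arrays, and it was added here after values had been seen. Of its 29 tested genes, 0 were called between 4 h and 20 h, 4 were higher and 6 lower at an unadjusted p under 0.05, against 5.59% and 4.18% of all genes, and the median was -0.071. St3gal5, a ganglioside synthase, had 9.46, 8.77, 8.59, 8.97 and 9.38 at 4 h and 7.99, 8.55, 8.08, 8.66 and 8.25 at 20 h (-0.73 ± 0.18, adjusted p = 0.236). Hmox1, heme oxygenase, differed by -0.67 ± 0.17, and Ppp1r3c, a glycogen-targeting phosphatase subunit, by 0.42 ± 0.11.

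Treated mice went through the same hours, on 16 arrays that share none with the vehicles. AAT, DMBA and DBP belong to the olive oil set, and EtOH and PB to the Saline set. The fit takes each chemical's pair of arrays as independent, which pairs of the same set may not be. Between 4 h and 20 h, with the chemical as a block, 313 of 15988 probe sets were called (1.96%), 150 higher (0.938%) and 163 lower (1.02%). Without the EtOH pair, whose 20 h array had a Gapdh 3′ to 5′ log2 ratio of 3.13, there were 501. Without the PB pair there were 156, and without the AAT, DMBA, DBP or DPN pair 110, 126, 112 and 144. Several genes that were lower in the vehicles fell here. Il1r1 fell by 2.29 ± 0.34 (adjusted p = 0.0104), Mt1 fell by 2.31 ± 0.39 (adjusted p = 0.0169), Mt2 fell by 2.22 ± 0.36 (adjusted p = 0.0137) and Fkbp5 fell by 1.36 ± 0.16 (adjusted p = 0.00402). Mt1 at 20 h was 10.81, 12.92, 13.13, 10.67, 9.30, 9.97, 8.85 and 8.59 for AAT, DMBA, DBP, ENU, DMN, DPN, EtOH and PB. DMBA and DBP, of the olive oil set, stayed near 13, and AAT of the same set did not.

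Ddc and Pter, a phosphotriesterase-related gene, rose in the treated arrays, by 1.10 ± 0.17 (adjusted p = 0.0129) and 0.76 ± 0.14 (adjusted p = 0.0195), close to their vehicle differences of 1.06 and 0.69. The called Socs3 probe set had a treated difference of -0.75 ± 0.21 and did not pass (adjusted p = 0.1). Dhcr7 differed by 0.55 ± 0.30 (adjusted p = 0.387) with signals at 20 h of 7.75 to 9.89. Of the 18 cholesterol synthesis genes, 1 rose in the treated arrays and 0 fell, where 1.01% and 0.996% of all genes did. It was Fdft1 (0.88 ± 0.19, adjusted p = 0.0439), a squalene synthase, whose call held in 4 of 16 alternatives. The list median was 0.24. Nr1d1 rose by 1.63 ± 0.35 (adjusted p = 0.0401), a call that held in 7 of 16 alternatives, from 4 h signals of 5.02, 5.05, 5.64, 7.91, 8.13, 7.18, 5.02 and 5.54 in the same order of chemicals. At 4 h it was near the floor in the 5 chemicals of the olive oil and Saline sets. Other clock genes called in the treated arrays were Clock, which rose, and Cry2, Noct and Usp2, which fell. Of 9 tested clock repressors 1 rose and 1 fell, of 4 activators 1 rose, and of 9 outputs 2 fell, beside the same shares of all genes. The calls held in 8 of 16 alternatives for Clock, 9 for Cry2, 10 for Noct, and 10 and 5 for the Usp2 probe sets.

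**Figure D5:**
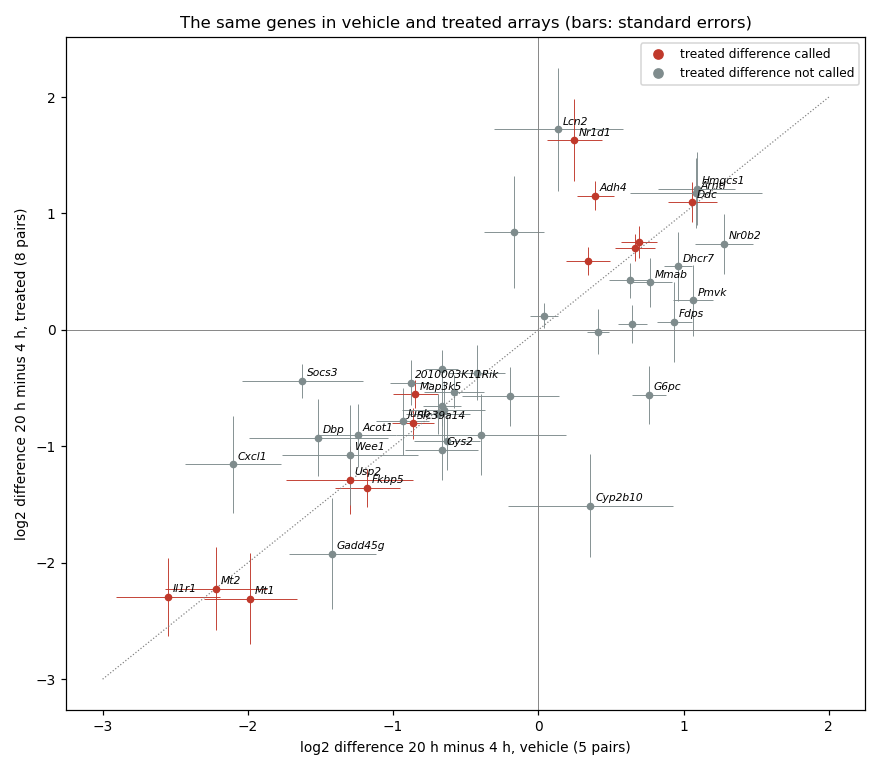
Log2 difference of 20 h minus 4 h in vehicle arrays (5 pairs, horizontal) against treated arrays (8 pairs, vertical) for the named genes, with standard errors as bars and red points where the treated difference was called. Il1r1, Mt1, Mt2 and Fkbp5 lie near the dotted line of equal difference, and G6pc lies to the right of it (0.76 in vehicles, -0.56 in treated arrays).

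The test of the difference between treated and vehicle called 0 probe sets, with 774 at an unadjusted p under 0.05 and a smallest adjusted p of 0.95. Among the 10 genes with the smallest p were G6pc, whose treated minus vehicle value was -1.32 ± 0.35, and Adh4, an alcohol dehydrogenase that rose in the treated arrays (1.15 ± 0.12, adjusted p = 0.00192) and differed by 0.39 ± 0.13 in the vehicles. The others were Setd7, Ahnak, Pak3, Pspn, Cldn9, Dsp, Mmel1 and Cda, with treated minus vehicle values between -1 and 1.39. That 0 were called does not show that treated and vehicle mice moved alike.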

How the data were processed

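The deposited table gave linear probe-set intensity for 52 arrays (22690 probe sets, 0 missing values, 0 columns not used). How the authors summarised and scaled these intensities was not stated in the text or labels read. The 64 control probe sets were left out. Each array was scaled by its median, a floor was set at the 30th percentile over all arrays (32.5 after scaling), and log2 was taken. Tests covered the 15988 probe sets that exceeded this floor in 5 or more of the 10 vehicle arrays of 4 h and 20 h, with limma 3.58.1 in R 4.3.3 (lmFit, eBayes with a mean-variance trend), the control set or the chemical being a fixed block, which left 4 residual degrees of freedom in the vehicle fit. Benjamini-Hochberg adjustment ran over all tested probe sets, and an adjusted p under 0.05 was called. Differences are on the log2 scale after the floor, which shrinks those of dim genes. Fits were tested on simulated data.

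The annotation gave 1 symbol for 20380 probe sets, and a look-up through Entrez IDs changed 0 of these symbols. A gene stands for its brightest tested probe set (9635 genes). The members and the gene lists (26 of pathways, 11 of cell types) were chosen with earlier results of these data known. Named genes were the clock lists, called genes, up to 4 members of a list with the largest difference, the 10 smallest p of the treated minus vehicle test, and Cyp2b10. Outside that rule, the genes called in the fit of 20 vehicle arrays, further list members and St3gal5, Hmox1 and Ppp1r3c were named after their values were seen. Some genes that the rule allows are left unnamed. Alternatives covered scaling, floor, filter, trend, block and leaving out sets, and p-values measure the spread between pools only. The number of arrays limits the precision.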

Additional observations from a re-analysis of the deposited data

Results flagged for a closer look

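Of 106 groups of arrays checked, 8 had 1 array far from the others in its group, where chance alone would flag about 1 in 20 groups. In the vehicles of 20 h these were the DPN array in Fdps (10.6) and Pmvk (7.02), the lowest of its group in each. The ENU array was highest in G6pc (11.8), and the Saline array was highest in Acot1 (6.15, the other 4 being at the floor) and in Cyp2b10 (11.5). In the vehicles of 4 h the DMN array was lowest in Per1 (5.02, the floor). In the treated arrays of 20 h the EtOH array had a Gapdh 3′ to 5′ log2 ratio of 3.13 and an actin ratio of 3.79, each the highest of 8.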

How the results depend on the processing

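The vehicle calls between 4 h and 20 h were few under all settings run. The count of 2 became 1 with scaling by the 75th percentile, with quantile normalization and without the mean-variance trend, and 0 without the filter on low values and with no replicate block. Leaving out 1 set gave 0 to 2. Socs3 was called in 9 of 13 alternatives (adjusted p from 0.00401 to 0.318) and Dhcr7 in 3 of 13 (0.0205 to 0.318). Without the Saline pair the count of 1 became 0 under scaling by the 75th percentile, quantile normalization, the 20th or 40th percentile as floor, no filter, no trend and no replicate block, and leaving out a further set gave 0 to 2.

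In the fit of 20 vehicle arrays, the 12 calls between 4 h and 20 h became 21 with scaling by the 75th percentile. They became 7 and 21 with the floor at the 20th and 40th percentile, and 1 without the filter. Probe sets above the floor in all 10 arrays gave 20, no replicate block 5 and leaving out the 14-day arrays 5. Leaving out 1 set gave 2 to 33, with 3 for the Saline set. Socs3 was called in 14 of 14 of these alternatives, Il1r1 in 12 of 13 and Nr0b2 in 10 of 14. Fkbp5, Map3k5 and 2010003K11Rik were called in 8, Dhcr7 in 7, Mmab and Cplx1 in 6, Pter in 5 and Ddc in 4. The 77 calls between 4 h and 28 days became 14 without the filter and 32 with no replicate block. They became 8 to 88 without 1 set, with 12 for the Saline set. Il1r1, Mt2, Socs3 and Fkbp5 were called in every one of those alternatives in which they were tested. Between 20 h and 28 days, 0 became 2 with scaling by the 75th percentile or quantile normalization and 1 with the stricter filter, and 0 to 1 without 1 set. The 14-day calls went from 2272 against 4 h to 1322 (75th percentile), 962 (quantile), 1478 (no filter) and 261 to 3970 (without 1 set), and from 3121 against 20 h to 2072 (75th percentile), 1539 (quantile) and 603 to 4747 (without 1 set).

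The 313 treated calls became 37 without the filter and 195 with no replicate block, and 110 to 501 without 1 chemical. The count of 0 for treated minus vehicle was the same under each setting run. Of the named genes, the range without 1 set crossed 0 for Cplx1 (-0.020 to 0.072, brightest probe set), Cyp2b10 (-0.35 to 0.92), Lcn2 (-0.49 to 0.42), Per1 (-1.01 to 0.16), Per2 (-0.46 to 0.13) and Saa2 (-0.32 to 0.11). The sign turned without the olive oil set for Cplx1, Lcn2, Per1 (0.16) and Per2 (0.13) and without the Saline set for Cyp2b10, Per1 (0.021), Per2 (0.046) and Saa2, so these mean differences have no settled direction. The runs without 1 set in the fits of 20 and of 26 arrays, other than the run without Saline in the latter, and the run without the 14-day arrays were chosen after seeing the data. The 4 h and 20 h arrays of a set had deviations from their group means that correlated over 0.1 in 4 of 5 sets, with r from 0.070 to 0.23, and 4 of 5 correlated best with their own set, so the block rests on the set titles and not on a pairing that every set shows.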
